A study of Arabidopsis thaliana with 12 samples.

Results

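NAC proteins are a plant-specific family of transcription factors, and 10 of their genes that are known from work on stress and on leaf senescence were followed here in an undamaged Arabidopsis thaliana leaf after an older leaf of that plant had been crushed. They are ANAC019 (AT1G52890), ANAC055 (AT3G15500), ANAC072 (AT4G27410), ATAF1 (AT1G01720), ATAF2 (AT5G08790), ANAC032 (AT1G77450), ANAC102 (AT5G63790), JUB1 (AT2G43000), ORE1 (AT5G39610) and NAP (AT1G69490), and they were taken by gene identifier, with earlier results of these data known, from the 34262 genes of the deposited tables. The RNA came from leaf 13 of plants aged 5 weeks that were grown at 21 °C with 10 h of light and 14 h of darkness. The genotypes were the wild type Col-0 (WT) and isi1-2, the insertion line SALK_014032 of the gene ISI1 in the Col-0 background. In wounded plants 50% to 60% of the apical blade of leaf 8 was crushed with forceps and leaf 13 was taken 1 h later, whereas unwounded plants of either genotype gave the control leaves. Each of the 4 groups had 3 replicates, and each replicate was a pool of 2 plants. The mutant is represented by 1 line, so its differences from WT are those of that line.

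Libraries were stranded poly-A mRNA libraries, with 23307790 to 30747778 counts over genes per sample. Levels are given in CPM, the counts of a gene relative to the library's total, scaled between libraries by the trimmed mean of M values (TMM), and a level of 3 counts in 1 library, which corresponds to 0.0995 to 0.126 CPM on that scale, was taken as the floor of detection. ISI1 (AT4G27750) had 254 to 270 counts in unwounded WT and 253 to 337 in wounded WT, against 1 count in every unwounded isi1-2 library and 1 to 4 in the wounded ones, so the libraries matched their genotype labels. All 3 leaf mesophyll markers, RBCS1A, LHCB2.1 and CA1, were above 3 counts in every group, while of the 3 flower and meristem markers AG alone passed 3 counts in any library and the root marker PYK10 reached at most 0.188 CPM. Of the 12 comparisons of replicate libraries within groups, 0 were of identical libraries.

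The NAC domain binds DNA, and the rest of the protein activates or represses the genes it binds. ANAC019, ANAC055 and ANAC072 (also called RD26) form a closely related trio that is induced by drought, abscisic acid and jasmonate, and in jasmonate signalling the bHLH factor MYC2 acts upstream of them. ATAF1, ATAF2, ANAC032 and ANAC102 form the neighbouring ATAF group, whose members take part in stress signalling, hormone metabolism and detoxification. ORE1 and NAP drive the degradation of chlorophyll and macromolecules in ageing leaves, whereas JUB1 delays ageing and dampens reactive oxygen responses.

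All 10 genes have 3 coding exons in the RefSeq annotation of the assembly TAIR10.1. Within their coding sequences, ANAC019 and ANAC055 were the most alike of the trio, with 75.9% identical positions over the alignment, against 62.4% for ANAC019 with ANAC072 and 61.2% for ANAC055 with ANAC072. In the ATAF group the identity was 63.7% for ATAF2 with ANAC102 and 63.6% for ATAF1 with ANAC032. Searched against the genome, 0 of the 10 coding sequences matched another place over at least 100 bases at 95% identity or more. The highest identity over that length was 88.4%, for ANAC019 and for ANAC055. The parts of the transcripts outside the coding sequence were not searched. ATAF1, ATAF2, ANAC102 and JUB1 overlap at least 1 gene on the opposite strand. The largest overlap with a single gene was 18.8% of the member's span in the genome, introns included. It was in ATAF1, which overlaps 2 such genes. Whether strand was used in counting is not stated, so reads from those overlaps cannot be assigned with certainty.

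The promoters of 5 members are shown because they belong to the genes that moved most after wounding. Each is the stretch of 250 bases before the annotated start of the gene on the gene's own strand, from RefSeq TAIR10.1, and the capitals mark CACGTG or AACGTG on either strand (AACGTG reads CACGTT on the other strand). CACGTG is the G-box, which bHLH factors such as MYC2 and bZIP factors of abscisic acid signalling are known to bind.
ANAC019, chr1:19698483-19698732, minus strand: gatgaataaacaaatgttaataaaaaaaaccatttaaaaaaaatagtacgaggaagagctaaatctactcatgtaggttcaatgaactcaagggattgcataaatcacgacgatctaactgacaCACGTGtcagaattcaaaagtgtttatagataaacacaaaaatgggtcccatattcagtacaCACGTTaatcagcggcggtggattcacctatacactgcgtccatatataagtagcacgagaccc
ANAC055, chr3:5234207-5234456, plus strand: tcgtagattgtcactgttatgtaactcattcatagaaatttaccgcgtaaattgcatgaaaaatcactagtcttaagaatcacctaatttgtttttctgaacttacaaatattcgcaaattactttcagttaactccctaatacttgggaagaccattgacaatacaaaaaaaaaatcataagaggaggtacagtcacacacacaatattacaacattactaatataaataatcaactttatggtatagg
ANAC072, chr4:13709171-13709420, minus strand: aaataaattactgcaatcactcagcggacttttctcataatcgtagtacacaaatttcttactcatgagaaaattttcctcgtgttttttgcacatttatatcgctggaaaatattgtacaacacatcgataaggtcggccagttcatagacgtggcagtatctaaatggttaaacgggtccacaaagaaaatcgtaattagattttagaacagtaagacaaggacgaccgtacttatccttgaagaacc
ANAC032, chr1:29099589-29099838, plus strand: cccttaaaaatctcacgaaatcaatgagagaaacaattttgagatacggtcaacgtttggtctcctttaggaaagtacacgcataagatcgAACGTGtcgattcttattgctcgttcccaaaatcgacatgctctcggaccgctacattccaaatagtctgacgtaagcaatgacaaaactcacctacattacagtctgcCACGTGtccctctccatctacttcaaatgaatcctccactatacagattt
NAP, chr1:26121830-26122079, plus strand: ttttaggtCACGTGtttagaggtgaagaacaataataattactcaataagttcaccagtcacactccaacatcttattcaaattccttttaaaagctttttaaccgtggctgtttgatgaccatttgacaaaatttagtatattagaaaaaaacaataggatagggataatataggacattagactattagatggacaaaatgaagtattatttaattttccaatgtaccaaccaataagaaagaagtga
Counted from the gene start, CACGTG began at base -126 in ANAC019, at base -50 in ANAC032 and at base -242 in NAP. AACGTG began at base -64 in ANAC019 and at base -159 in ANAC032. Among 27443 promoters of the same length, 6.49% held CACGTG and 7.54% held AACGTG. A related form present in 11.1% of all promoters, CATGTG, was in 0 of the 10 windows. TTGAC, the core of the W-box that WRKY factors bind, was in 44.9% of all promoters and in those of ANAC055, ATAF1, ATAF2, ANAC032, JUB1 and NAP. CGCGT was in 6.87% of all promoters and in those of ANAC055 and ORE1, and GCCGCC was in 1.87% of all promoters and in 0 of the 10 windows. In the windows of ANAC072 and ANAC102 the search found 0 matches to these 6 motifs. Both strands were searched, and a match or its absence in such a window describes its letters and says nothing of binding.

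ORE1 is known as a target of the microRNA miR164, whose mature forms are shown with the site in ORE1 because this separates ORE1 from the other 9 members. Capitals mark the seed, bases 2 to 8 of the microRNA, and in the site the mismatches to miR164a, and the letters are those of DNA.
miR164a and miR164b-5p: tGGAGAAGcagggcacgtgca
miR164c-5p: tGGAGAAGcagggcacgtgcg
ORE1, coding bases 632 to 652: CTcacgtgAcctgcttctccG
The 3 forms share 1 seed. The ORE1 site had 4 mismatches to miR164a and 3 to miR164c-5p, and the best site in the coding sequence of any other member had at least 8 mismatches to these forms. The genes MIR164A, MIR164B and MIR164C had 0 counts in every library, and poly-A libraries do not measure mature microRNAs.

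In unwounded leaves the members covered a wide range of levels. Divided by transcript length, ANAC102 had the highest mean level in unwounded WT, 8.00 ± 1.16 CPM per kb (SD, n = 3), followed by ATAF2 with 6.76 ± 1.12, and these 2 overlapped. ATAF1 followed with 3.52 ± 0.492 CPM per kb, below every ATAF2 value, and then ANAC072 with 1.74 ± 0.467, below every ATAF1 value. NAP (0.846 ± 0.279), ANAC032 (0.724 ± 0.0363) and ANAC019 (0.595 ± 0.0596 CPM per kb) came next, and NAP overlapped both of the others. Divided by coding length instead, ANAC032 stood above NAP, at 1.64 against 1.31 CPM per kb. ANAC055 had 0 counts in all 6 unwounded libraries of both genotypes, which allows up to 3 counts in each. Before wounding the 3 highest members were thus all of the ATAF group.

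**Figure D1:**
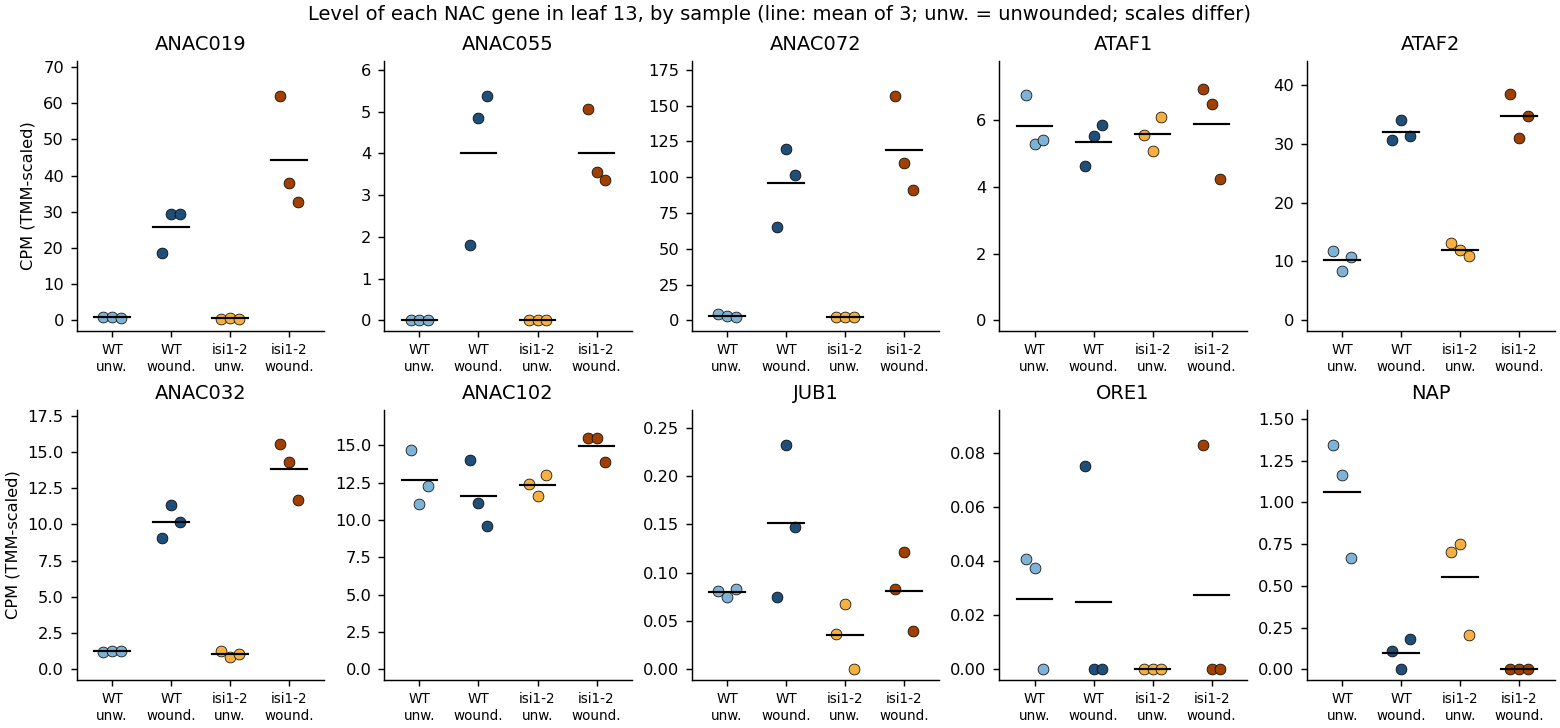
Level in TMM-scaled CPM (vertical axes, each from 0 with its own scale) of the 10 NAC genes in each of the 12 samples; points are samples, lines are means of the 3 replicates of a group. ANAC019, ANAC055, ANAC072, ATAF2 and ANAC032 were higher in every wounded sample than in any unwounded one, NAP was lower in every wounded sample, ATAF1 overlapped between all groups, and JUB1 and ORE1 lay near the floor of 3 counts.

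The first comparison asked which of the NAC genes change in the distal leaf of WT when leaf 8 is crushed. The whole trio rose, as did ANAC032 and ATAF2, while NAP fell and ATAF1 and ANAC102 were not called. Counts of all genes were tested with the quasi-likelihood test of edgeR, and a gene is called here when its p-value, adjusted by Benjamini-Hochberg over the 18698 genes tested, is under 0.05. Of the 8 members with enough counts to be tested, 5 were called higher and 1 lower, against a background of 46.9% of all genes called, 23.9% higher and 23.0% lower. The response of leaf 13 was thus broad. All 6 called members changed at least 2-fold, against 7.81% of all genes called higher and 5.59% called lower by that much. In all 6 the wounded and unwounded libraries did not overlap, against 27.8% of all genes apart in the higher direction and 27.9% in the lower. The median log2 fold change of the 8 tested members was 2.33, beside -0.00306 for all genes tested. These 8 passed a filter on low counts that a gene can pass through its high group alone. All 10 were chosen with earlier results of these data known. These counts, those for isi1-2 below and the median are therefore descriptions and not measures of all 10.

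ANAC072, the member with the highest level after wounding, was counted 102, 89 and 57 times in unwounded WT and 1739, 3613 and 2759 times in wounded WT. In CPM this was 4.15, 3.35 and 2.38 before and 65.3, 119.9 and 101.6 after wounding. Every wounded library lay far above every unwounded one, and the mean rose 28.9-fold (log2 fold change 4.85, SE 0.33; edgeR adjusted p = 2.00e-06). ANAC019 had 19, 24 and 18 counts in unwounded WT and 498, 884 and 799 in wounded WT, or 0.773, 0.903 and 0.753 CPM against 18.7, 29.3 and 29.4 CPM. The groups were again wide apart, with a 31.6-fold rise (log2 fold change 4.98, SE 0.37; edgeR adjusted p = 1.85e-06). ANAC055 went from 0 counts in each unwounded library to 48, 146 and 146 counts, a mean of 4.01 ± 1.93 CPM. Against the mean floor of 3 counts per library the level rose at least 33.4-fold (edgeR adjusted p = 2.54e-04). In the trio the lowest wounded WT library was replicate 1 each time.

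In the ATAF group the changes were smaller and divided the 4 genes. ANAC032, a stress-induced factor linked to senescence and reactive oxygen, had 29, 34 and 31 counts before and 241, 341 and 276 after wounding in WT, or 1.25 ± 0.0627 against 10.2 ± 1.13 CPM. That is an 8.11-fold rise with no overlap (log2 fold change 3.02, SE 0.16; edgeR adjusted p = 4.09e-10). ATAF2, known to be wound-inducible and to repress brassinosteroid-inactivating enzymes, had 290, 225 and 257 counts before and 819, 1028 and 849 after wounding. It rose 3.10-fold, from 10.3 ± 1.71 to 32.0 ± 1.81 CPM (log2 fold change 1.63, SE 0.11; edgeR adjusted p = 8.08e-09). Their closest relatives by coding sequence behaved otherwise. ATAF1, a regulator of abscisic acid synthesis and senescence, had 166, 141 and 129 counts before and 123, 167 and 159 after wounding. The 2 groups of ATAF1 overlapped, and the change was not called (log2 fold change -0.12, SE 0.17; edgeR adjusted p = 0.584). ANAC102, a factor of low-oxygen and xenobiotic responses, had 361, 295 and 293 counts before and 374, 335 and 261 after wounding, again overlapping (log2 fold change -0.13, SE 0.13; edgeR adjusted p = 0.434). A p-value over the threshold does not show that ATAF1 and ANAC102 stayed the same.

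Of the senescence regulators, NAP had 33, 31 and 16 counts in unwounded WT and 3, 0 and 5 in wounded WT. The mean fell from 1.06 ± 0.349 to 0.0989 ± 0.0928 CPM, without overlap (fitted log2 fold change -3.41, SE 0.65; edgeR adjusted p = 6.54e-04). The log2 fold change was -2.80 without replicate 2 of wounded WT and -4.21 without replicate 3. The wounded mean lies below the floor of 3 counts per library, so the size of the decrease is uncertain. JUB1 had 2 counts in each unwounded WT library and 2, 7 and 4 after wounding, and 28 counts over all 12 libraries. ORE1 had 6 counts over all 12 libraries and 0 counts in 8 of them. JUB1 and ORE1 were too low to be tested, so a change of either was not detectable at this depth.

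The same comparison within isi1-2 gave calls for the same 6 members in the same directions. The background there was 50.9% of all genes called, 25.1% higher and 25.7% lower, with 8.38% higher and 6.38% lower by at least 2-fold. Wounded and unwounded libraries were apart in these 6 and in ANAC102, against 29.8% of all genes in the higher and 29.8% in the lower direction. ANAC072 had 66, 76 and 63 counts before and 3778, 2709 and 2296 after wounding, with every wounded library above every unwounded one and a 46.8-fold rise (log2 fold change 5.55, SE 0.34; edgeR adjusted p = 7.64e-07). ANAC019 had 12, 21 and 10 counts before and 1494, 938 and 827 after wounding, an 82.3-fold rise, the largest among the members counted before wounding (log2 fold change 6.36, SE 0.38; edgeR adjusted p = 2.81e-07). ANAC055 again started from 0 counts in each library and reached 122, 88 and 85 counts, at least 35.6-fold higher than the floor (edgeR adjusted p = 2.04e-04). The trio thus rose in both genotypes, and in isi1-2 the highest wounded library was replicate 1 each time.

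ANAC032 in isi1-2 had 35, 26 and 26 counts before and 374, 354 and 294 after wounding, and it rose 12.8-fold (log2 fold change 3.67, SE 0.17; edgeR adjusted p = 2.55e-11). ATAF2 had 354, 350 and 267 counts before and 929, 767 and 875 after wounding, a 2.89-fold rise (log2 fold change 1.53, SE 0.11; edgeR adjusted p = 1.09e-08). Neither gene overlapped between the 2 groups. NAP went from 19, 22 and 5 counts to 0 in all 3 wounded libraries, at least 4.55-fold lower (edgeR adjusted p = 7.14e-04). ATAF1 had 150, 149 and 148 counts before and 167, 160 and 107 after wounding, overlapping (log2 fold change 0.08, SE 0.17; edgeR adjusted p = 0.725). ANAC102 had 335, 340 and 317 counts before and 373, 382 and 351 after wounding. Its 2 groups did not overlap in CPM, 12.4 ± 0.726 against 14.96 ± 0.899, but the change was not called (log2 fold change 0.28, SE 0.13; edgeR adjusted p = 0.0816). With the unwounded and wounded isi1-2 samples fitted alone, ANAC102 passed the threshold at the same log2 fold change of 0.28 (edgeR adjusted p = 0.0200).

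**Figure D2:**
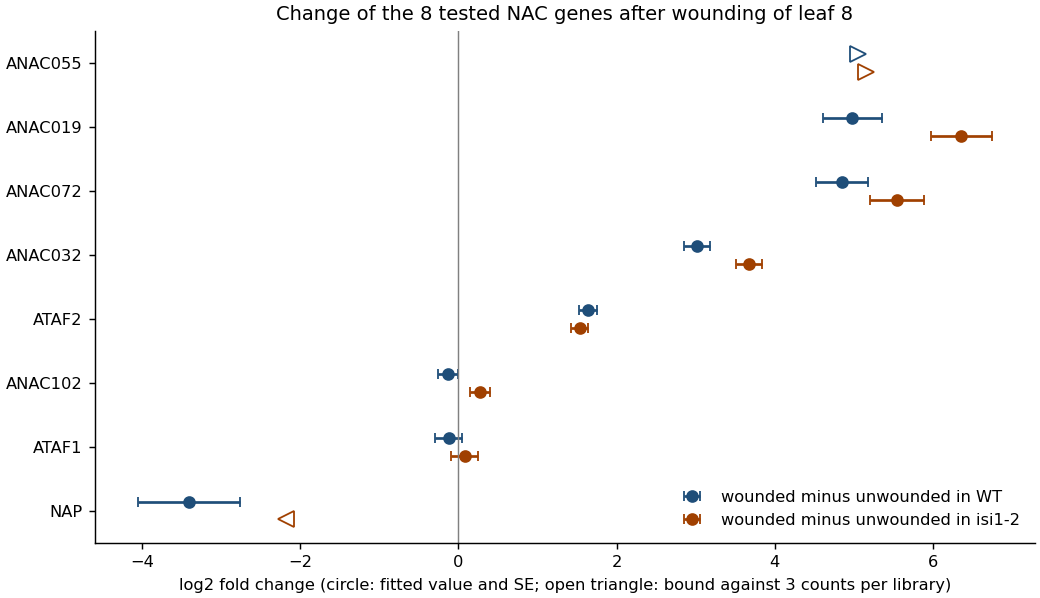
Log2 fold change (horizontal axis, wounded minus unwounded) of the 8 tested NAC genes in WT (blue) and isi1-2 (brown). Circles with bars are fitted values with their SE; open triangles are bounds against 3 counts per library and point away from 0. The trio, ANAC032 and ATAF2 lie right of 0 in both genotypes, NAP lies left of 0, and ANAC102 and ATAF1 lie between -0.13 and 0.28.

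The levels of the members changed places after wounding. In wounded WT, ANAC072 led with 50.4 ± 14.7 CPM per kb, above every value of the next genes, ATAF2 with 20.9 ± 1.18 and ANAC019 with 19.0 ± 4.53, which overlapped. ANAC102 followed with 7.31 ± 1.42 CPM per kb and overlapped with ANAC032 at 5.88 ± 0.654, and by coding length their order was the opposite, 11.96 against 13.4 CPM per kb. ATAF1 (3.23 ± 0.389) and ANAC055 (2.60 ± 1.25 CPM per kb) came last among the tested genes apart from NAP and also overlapped. The sum over the 10 genes went from 22.3 ± 3.02 to 109.6 ± 20.9 CPM per kb in WT and from 21.8 ± 0.806 to 141.8 ± 33.9 in isi1-2, with the wounded and unwounded sums apart in both genotypes. ANAC072 supplied 7.78% of that sum in unwounded WT and 45.4% in wounded WT, and ANAC019 supplied 2.72% and 17.2%. The share of ANAC102 went from 35.9% to 7.01% in WT although its own level was not called as changed. In isi1-2, ANAC072 went from 6.15% to 44.0% and ANAC019 from 1.77% to 22.6%.

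**Figure D3:**
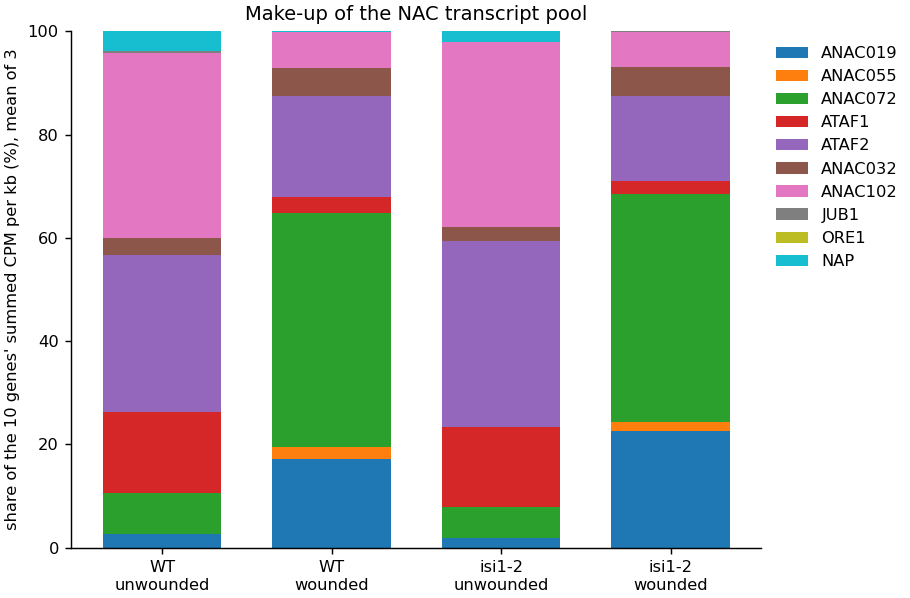
Share (%) of each of the 10 genes in their summed level in CPM per kb, as the mean of the 3 samples of each group. ANAC102, ATAF2 and ATAF1 fill most of the unwounded bars, whereas ANAC072, ATAF2 and ANAC019 fill most of the wounded bars in both genotypes.

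The tissue markers give the setting of these changes. The summed level of the 3 mesophyll markers was 23045 to 25405 CPM in unwounded WT and 19442 to 20582 in wounded WT. In isi1-2 it was 23908 to 26440 CPM unwounded and 19924 to 22777 wounded, so the sum was lower after wounding in both genotypes. RBCS1A made up most of it. In WT the means went from 3399 to 1796 CPM for LHCB2.1, from 3344 to 2779 for CA1 and from 17758 to 15285 for RBCS1A. In isi1-2, 2 of the 3 were called lower, against 25.7% of all genes. RBCS1A overlapped there, at 17531 to 19532 CPM unwounded and 15752 to 18160 wounded. The 3 guard cell markers summed to 82.4 to 85.8, 70.5 to 87.7, 74.5 to 85.9 and 66.1 to 72.5 CPM in the same order of groups. The companion cell marker SUC2 lay between 199 and 233 CPM in all 4 groups. The trichome marker GL2 was at 2.85 to 3.16, 1.502 to 1.92, 2.04 to 2.28 and 1.35 to 2.06 CPM in that order. The part of these marker differences in the NAC results was not tested. In whole leaves, fewer cells of a type, less RNA per cell and a change of the marker gene alone cannot be told apart.

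The next comparison asked whether the mutant differs from WT before wounding. By edgeR, 0 of the 8 tested members were called, and 0 had an unadjusted p-value under 0.05, against 0.128% of all genes called and 9.13% at that unadjusted p. DESeq2 also called 0 members. ANAC055, with 0 counts in all 6 unwounded libraries, is among the 8, although this test could not show a difference for it. The members with the lowest p-values were NAP, at 1.06 ± 0.349 CPM in WT and 0.553 ± 0.302 in isi1-2 (log2 fold change -0.91, SE 0.47; edgeR adjusted p = 0.606), and ATAF2, at 10.3 ± 1.71 and 12.01 ± 1.08 CPM (log2 fold change 0.22, SE 0.12; edgeR adjusted p = 0.618). ANAC019 was the member whose groups did not overlap: its highest isi1-2 value, 0.716 CPM, lay just under its lowest WT value, 0.753 CPM. At these counts the SE exceeded the difference (log2 fold change -0.60, SE 0.66; edgeR adjusted p = 0.846). Among all genes tested, 8.21% had isi1-2 libraries that all lay below those of WT.

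In wounded plants, 0 of the 8 tested members were called between isi1-2 and WT by edgeR and 0 by DESeq2, against a background of 2.39% of all genes called by edgeR. That background, 446 genes, was 940 without replicate 1 and 104 without replicate 3 of wounded WT, and 138 and 285 without replicates 2 and 3 of wounded isi1-2. At an unadjusted p-value under 0.05 there were 4 members (ANAC019, ANAC032, ANAC102 and NAP), against 16.6% of all genes. ANAC019 was higher in every isi1-2 library, 62.0, 38.0 and 32.8 CPM, than in every WT library, 18.7, 29.3 and 29.4 CPM (log2 fold change 0.78, SE 0.24; edgeR adjusted p = 0.133). ANAC032 also did not overlap, with 9.05, 11.3 and 10.2 CPM in WT and 15.5, 14.3 and 11.7 CPM in isi1-2 (log2 fold change 0.44, SE 0.12; edgeR adjusted p = 0.0779). These were 2 of 8 members with separate groups in the higher direction, against 9.87% of all genes.

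ANAC102 in wounded plants had 15.5, 15.5 and 13.9 CPM in isi1-2 and 14.0, 11.1 and 9.61 CPM in WT, overlapping by 1 library (log2 fold change 0.37, SE 0.13; edgeR adjusted p = 0.148). ANAC072 had 156.9, 109.7 and 91.1 CPM in isi1-2 and 65.3, 119.9 and 101.6 CPM in WT, a wide overlap (log2 fold change 0.32, SE 0.25; edgeR adjusted p = 0.596). ANAC055 had nearly the same mean in both genotypes, 4.00 ± 0.928 and 4.01 ± 1.93 CPM (log2 fold change -0.01, SE 0.39; edgeR adjusted p = 0.994). ATAF1 (log2 fold change 0.14, SE 0.17) and ATAF2 (log2 fold change 0.12, SE 0.10) overlapped as well, and NAP was at or near 0 counts in both genotypes. Without replicate 1 of wounded WT, ANAC102 was called (log2 fold change 0.54; edgeR adjusted p = 0.0114), and without replicate 3 of wounded isi1-2, ANAC032 was called (log2 fold change 0.55; edgeR adjusted p = 0.0462). The genotype comparison in wounded leaves therefore turned on single libraries for these 2 genes.

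The test of the difference between the wounding effects in isi1-2 and in WT, the interaction, called 0 of the 8 members by edgeR and 0 by DESeq2, against 0.0321% of all genes by edgeR. At an unadjusted p-value under 0.05 there were 2 members (ANAC032 and ANAC102), against 10.5% of all genes. The wounding effect in isi1-2 exceeded that in WT by a log2 value of 1.38 for ANAC019 (SE 0.70; edgeR adjusted p = 0.536), 0.69 for ANAC072 (SE 0.50; adjusted p = 0.688), 0.65 for ANAC032 (SE 0.25; adjusted p = 0.379) and 0.41 for ANAC102 (SE 0.18; adjusted p = 0.452). For ATAF2 the difference was -0.10 (SE 0.16; edgeR adjusted p = 0.877). ANAC055 had 0 counts in every unwounded library, so its interaction could not be estimated (SE 30.4). NAP had 0 counts in every wounded isi1-2 library, and its estimate was loose (log2 value -3.49, SE 2.03; edgeR adjusted p = 0.577). For these 2 genes the lack of a call carries no information on a difference. The larger fold changes of ANAC019, ANAC072 and ANAC032 in isi1-2 are thus not shown to differ from those in WT.

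The spread within the wounded groups had a shape that was noticed after the values were seen. In all 5 members called higher, replicate 1 was the lowest library of wounded WT, and in all 5 replicate 1 was the highest library of wounded isi1-2. Relative to the group mean, replicate 1 of wounded WT stood at 0.450 for ANAC055, 0.683 for ANAC072, 0.724 for ANAC019, 0.889 for ANAC032 and 0.960 for ATAF2. Replicate 1 of wounded isi1-2 stood at 1.40 for ANAC019, 1.32 for ANAC072, 1.27 for ANAC055, 1.12 for ANAC032 and 1.11 for ATAF2. MYC2, which is not a member, showed the same order, with replicate 1 lowest in wounded WT (703.7 CPM, 0.928 of the mean) and highest in wounded isi1-2 (890.5 CPM, 1.03 of the mean). Other induced genes, described below, did not. Replicate 1 was the highest library of wounded WT for VSP1 (214.7 CPM, against 138.0 and 160.6) and LOX2 (8140 CPM, against 6999 and 6759). The same held for VSP2, BSMT1 and PPH. The 5 members were counted in the same libraries, so they are not separate observations of this order. Among the 4460 genes called higher in WT, replicate 1 of wounded WT was lowest in 58.5%. Replicate 1 of wounded isi1-2 was highest in 27.2% of them, and both held in 13.9%. Among the 1460 of these genes that rose at least 2-fold, as all 5 members did, the shares were 65.2%, 33.3% and 19.7%. Replicates of different groups are separate pools, so the shared number ties no plants together.

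**Figure D4:**
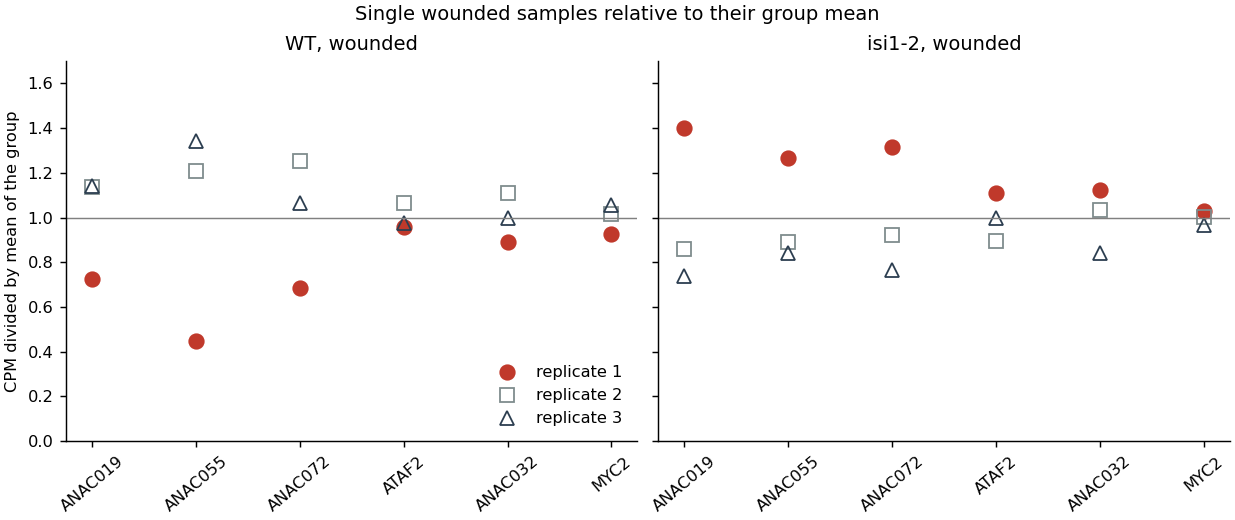
CPM of each wounded sample divided by the mean of its group (vertical axis, from 0; the line marks 1) for the 5 NAC genes called higher and for MYC2, in WT (left) and isi1-2 (right). Filled circles are replicate 1, squares replicate 2 and triangles replicate 3. Replicate 1 lies lowest in WT, at 0.450 for ANAC055, and highest in isi1-2, at 1.40 for ANAC019, and MYC2 shows the same order. Not all induced genes do: for VSP1 and LOX2, which are not drawn, replicate 1 was the highest library of wounded WT.

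Regulators known to act upstream of these factors moved in both directions. Of 19 such genes 16 were tested, and in WT 6 were called higher and 8 lower, with a median log2 fold change of -0.29, against 23.9% of all genes called higher and 23.0% lower. MYC2, the jasmonate factor upstream of the trio, went from 40.7 ± 9.49 to 758.5 ± 50.3 CPM (log2 fold change 4.22, SE 0.15; edgeR adjusted p = 5.62e-10). Its relative MYC3 rose from 50.8 ± 2.66 to 105.2 ± 5.65 CPM (log2 fold change 1.05; edgeR adjusted p = 2.24e-09), while MYC4 fell by 0.85 on the log2 scale (edgeR adjusted p = 6.22e-04). ABI5, a bZIP factor of abscisic acid signalling, rose from 0.930 ± 0.0746 to 1.47 ± 0.349 CPM (log2 fold change 0.67; edgeR adjusted p = 0.0295), a call that DESeq2 did not make (adjusted p = 0.0680). The ABI5 call was also lost without replicate 1 or 3 of unwounded WT (edgeR adjusted p = 0.0745 and 0.0797) and without replicate 2 or 3 of wounded WT (0.158 and 0.0597).

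The strongest decreases among these regulators were in 2 clock genes and a phytochrome-interacting factor. PRR9, a clock protein known to act on ORE1 and miR164, fell from 16.7 ± 2.42 to 1.19 ± 0.593 CPM (log2 fold change -3.81; edgeR adjusted p = 2.28e-08). CCA1, a morning clock factor known to repress ORE1, fell from 10.9 ± 2.12 to 1.29 ± 0.150 CPM (log2 fold change -3.08; edgeR adjusted p = 5.47e-09). PIF5, which promotes ORE1 expression in ageing leaves, fell from 95.7 ± 1.28 to 40.1 ± 2.17 CPM (log2 fold change -1.26; edgeR adjusted p = 4.58e-11). Other regulators on this list went up in WT, PIF4 from 199.9 ± 6.60 to 252.7 ± 1.59 CPM and EIN3 from 76.6 ± 4.34 to 114.7 ± 8.77 CPM. EIL1 went down, from 75.5 ± 1.49 to 49.0 ± 2.83 CPM. The bZIP genes ABF2 and ABF3 fell by 0.52 and 1.02 on the log2 scale, and ABF4 was not called. In isi1-2, 7 of the 16 were called higher and 8 lower, against 25.1% and 25.7% of all genes, with MYC2 at a log2 fold change of 4.61. In wounded plants 1 of the 16 was called between the genotypes, against 2.39% of all genes. It was PIF5, lower in isi1-2 (log2 fold change -0.27, edgeR adjusted p = 0.0225). That call was lost with the 2 wounded groups fitted alone (edgeR adjusted p = 0.118). It was also lost without replicate 1 or 2 of wounded isi1-2 (edgeR adjusted p = 0.0710 and 0.0717) or replicate 2 of wounded WT (0.0736).

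Genes that published work places downstream of the members were grouped by their factor. For the trio all 7 listed genes were tested, and in each genotype 5 were called higher and 2 lower, against 23.9% and 23.0% of all genes in WT and 25.1% and 25.7% in isi1-2. The jasmonate-responsive storage protein genes VSP1 and VSP2 rose in WT from 3.28 ± 2.17 to 171 ± 39.4 CPM and from 15.5 ± 15.4 to 212 ± 67.2 CPM (log2 fold changes 5.72 and 3.78; edgeR adjusted p = 3.25e-06 and 1.22e-03). Without replicate 1 of unwounded WT these log2 fold changes were 6.32 and 5.02. LOX2, a lipoxygenase of jasmonate synthesis, rose with a log2 fold change of 2.94 (edgeR adjusted p = 1.49e-07), and the protease gene ERD1 with 0.54. BSMT1, a methyltransferase that makes methyl salicylate, went from 0 counts in each unwounded library to 42, 31 and 24 counts in wounded WT and 143, 204 and 130 in wounded isi1-2. This was at least 9.68-fold higher than the floor in WT and at least 57.4-fold in isi1-2. The 2 lower genes act in salicylic acid synthesis and glucosylation: ICS1 fell by 0.68 and SAGT1 by 0.60 on the log2 scale in WT, and by 0.75 and 0.72 in isi1-2.

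Targets of the other members moved in both directions. The ATAF1 targets NCED3, the abscisic acid synthesis gene, and GLK1, a chloroplast development factor, fell in WT by 0.85 and 0.72 on the log2 scale although ATAF1 itself was not called. Of the ATAF2 targets, BAS1 fell from 5.26 ± 0.362 to 0.705 ± 0.267 CPM in WT (log2 fold change -2.90; edgeR adjusted p = 2.19e-08), while SOB7 rose by a log2 value of 0.64 (edgeR adjusted p = 0.0383), and both enzymes inactivate brassinosteroids. Of 5 JUB1 targets, RGL1 and DREB2A rose in WT, with log2 fold changes of 1.91 and 0.70. GA3OX1 and GAI fell there by 2.81 and 0.18 on the log2 scale. In isi1-2, 3 of the 5 were called higher and 1 lower, and the mean of GAI went up, from 66.6 ± 2.71 to 75.1 ± 4.75 CPM. Of the 8 targets listed for ORE1 and NAP 7 were tested, and 1 of them, the aldehyde oxidase gene AAO3, was called in WT (log2 fold change 0.26; edgeR adjusted p = 0.0226), whereas 3 were called higher in isi1-2. Over all 25 listed targets 23 were tested, with 9 higher and 7 lower in WT (median log2 fold change 0.21) and 11 higher and 6 lower in isi1-2 (median 0.38), beside the same shares of all genes.

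The target list differed between the genotypes in wounded plants at 3 of 23 genes, all higher in isi1-2, against 2.39% of all genes called. BSMT1 had 6.45 ± 1.61 CPM in isi1-2 and 1.16 ± 0.366 in WT, with every isi1-2 library above every WT library (log2 fold change 2.47, SE 0.26; edgeR adjusted p = 1.09e-03). ERD1 had 119 ± 6.81 and 93.0 ± 2.53 CPM (log2 fold change 0.35; edgeR adjusted p = 0.0114), and GAI had 75.1 ± 4.75 and 58.8 ± 2.98 CPM (log2 fold change 0.35; edgeR adjusted p = 0.0138). Without replicate 2 of wounded isi1-2, or without replicate 3 of wounded WT, 1 of these 3 calls was left. In unwounded plants and for the interaction, 0 of the 23 were called by edgeR; 0 and 2 had an unadjusted p-value under 0.05.

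Senescence markers that are not members were called higher or not called. Of 11 markers 9 were tested, with 5 called higher and 0 lower in WT (median log2 fold change 0.40) and 6 higher and 0 lower in isi1-2 (median 0.48), against 23.9% higher and 23.0% lower of all genes in WT and 25.1% and 25.7% in isi1-2. The largest increase was in PPH, a chlorophyll-degrading hydrolase, from 48.8 ± 3.45 to 155 ± 12.7 CPM (log2 fold change 1.67; edgeR adjusted p = 3.53e-11). WRKY53, a regulator of early senescence, went from 1.07 ± 0.362 to 2.93 ± 1.13 CPM (log2 fold change 1.45; edgeR adjusted p = 5.73e-04). SAG21 went from 0.797 ± 0.130 to 1.60 ± 0.444 CPM (log2 fold change 0.99; edgeR adjusted p = 0.0225), a call lost without replicate 1 of unwounded WT (adjusted p = 0.0803) or replicate 3 of wounded WT (adjusted p = 0.115). Its call in isi1-2 (log2 fold change 0.78; edgeR adjusted p = 0.0463) was not made by DESeq2 (adjusted p = 0.0576) and was lost without replicate 2 of unwounded isi1-2 (edgeR adjusted p = 0.203) or without replicate 1, 2 or 3 of wounded isi1-2 (0.0740, 0.122 and 0.0702). SAG12, the classical marker of late senescence, had 0 counts in all 12 libraries, and SAG13 had 2 to 11 counts per library.

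The other NAC genes moved in both directions. Of 91 further NAC genes 51 were tested, and 11 were called higher and 9 lower in WT, with a median log2 fold change of 0.09, shares near the 23.9% and 23.0% of all genes. In isi1-2 the counts were 13 and 9, with the same rounded median, against 25.1% and 25.7% of all genes. NAC025 (AT1G61110) went from 0 counts to 0.297 ± 0.0658 CPM in WT, at least 2.47-fold higher than the floor (edgeR adjusted p = 6.72e-04). NAC096 (AT5G46590) rose from 0.199 ± 0.102 to 3.74 ± 0.841 CPM (log2 fold change 4.20; edgeR adjusted p = 1.25e-08), and NAM (AT1G52880) from 1.58 ± 0.0746 to 4.42 ± 0.717 CPM (log2 fold change 1.48; edgeR adjusted p = 2.48e-06). NAC097 (AT5G50820), NAC004 (AT1G02230) and NAC1 (AT1G56010) fell by 1.65, 1.59 and 1.42 on the log2 scale. Without replicate 2 of wounded WT, 7 rather than 11 of these genes were called higher. In wounded plants NAC041 was called higher and LOV1 lower in isi1-2, 2 of the 51 tested, against 2.39% of all genes called. These 2 genes are named here for the count after their values were seen. The higher call was lost without replicate 2 or 3 of either wounded group and the lower call without replicate 2 of wounded isi1-2 or replicate 3 of wounded WT, each leaving 0 genes called, and without replicate 1 of wounded WT 3 genes were called higher.

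**Figure D5:**
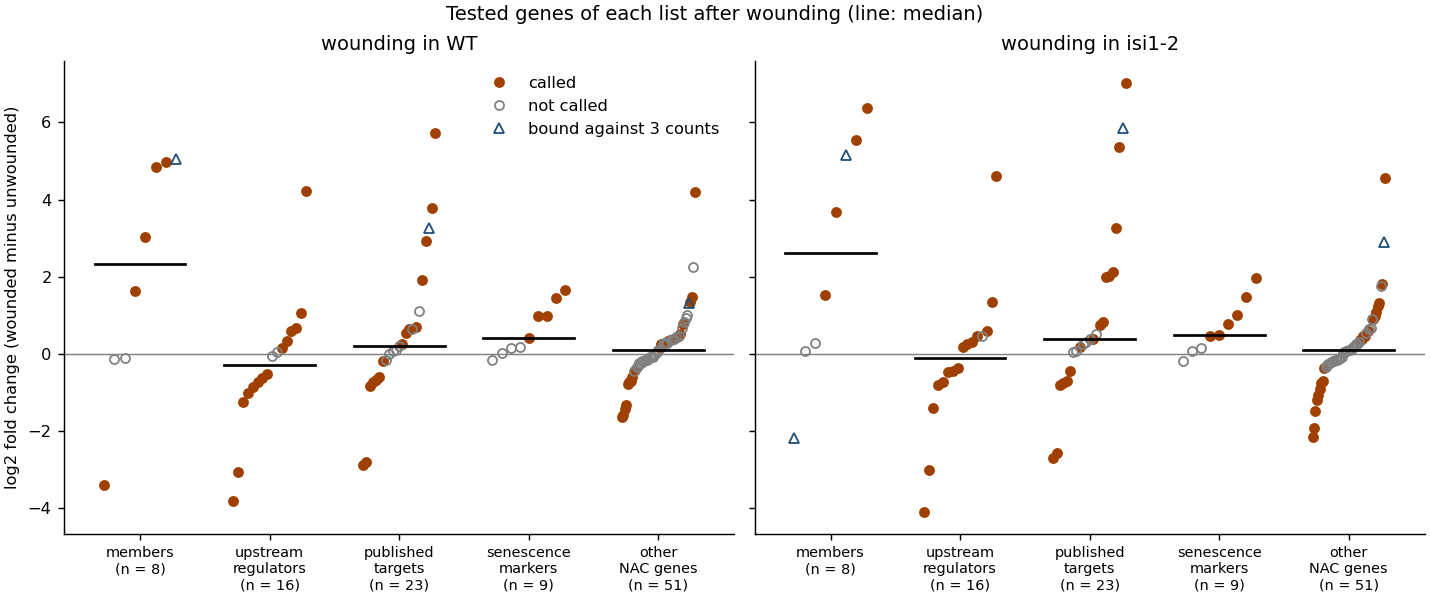
Log2 fold change (vertical axis, wounded minus unwounded) of the tested genes of each list in WT (left) and isi1-2 (right). Filled circles are called genes, open circles genes not called, triangles genes placed at their bound against 3 counts per library, and the line is the median of the list. The medians in WT are 2.33 for the 8 NAC members, -0.29 for upstream regulators and 0.21 for published targets. They are 0.40 for senescence markers and 0.09 for the other NAC genes. These medians are descriptions, because a gene can pass the filter on low counts through its high group alone.

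For each tested member the gene with the most similar profile over the 12 samples was found among 15833 genes whose log2 CPM averaged 1 or more. The samples fall into wounded and unwounded ones, so Pearson's r of log2 CPM mostly reflects the step between them and is given as a description. For the induced members it was 0.997 for ANAC019 with MYBR1, 0.998 for ANAC055 with SCL13, 0.998 for ANAC072 with AT1G61890, 0.998 for ANAC032 with GSTU6 and 0.994 for ATAF2 with PAO2. Such matches were common: 1104 to 1251 genes reached an r over 0.95 with each of these 5. For NAP the most similar gene was MSL6, with an r of 0.981, and 26 genes passed 0.95. ATAF1 and ANAC102, the members that were not called, reached 0.906 with AT3G24840 and 0.940 with UGT84A3, and 0 genes passed 0.95 for either.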

How the data were processed

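RNA-seq of leaf 13 was analysed in 12 samples, with groups and replicate numbers from the sample titles. The authors deposited raw read counts per gene, 1 table per sample, with no normalization. The submitters' processing notes name cutadapt 1.8, STAR 2.5.3a, HTSeq 0.9.1 and the build TAIR10, without role or order; use of strand in counting is not given in the sources used here. Counts were made per gene from single-end reads of 150 cycles, and the 5 summary lines of each table were left out. Reads with several alignments (4.19% to 4.46% of a library) are in those lines and could lower genes with near-identical copies.

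edgeR 4.0.16 in R 4.3.3 was run on all genes that passed filterByExpr (minimum count 10, minimum total 15; 18698 of 34262), with TMM scaling, 1 coefficient per group over all 12 samples and robust quasi-likelihood F tests. The biological coefficient of variation was 8.85%. The SE of a log2 fold change was taken from its F statistic (the size of the change over the root of F). The floor of 3 counts covers counting error only, because PCR copies were not told apart by molecular identifiers. The chi-square per degree of freedom of replicate pairs was 4.42 to 25.2, with the 2 highest values in pairs with replicate 1 of wounded WT. Alternatives were DESeq2 1.42.0, other scalings and filters, a replicate block, the compared groups alone and leaving out each sample.

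The members and the gene lists were chosen with earlier results of these data known. Named are all members and, per list, the 3 called genes that rose most and the 3 that fell most by log2 fold change in WT; further list genes are given to complete a group of targets or regulators. The other NAC genes are those that the RefSeq gene table (TAIR10.1, 32548 identifiers matched) names as NAC; VNI2 is on 2 lists. Lengths, overlaps, promoters and microRNAs were read from RefSeq TAIR10.1 by locus in its own annotation, and levels per kb use its summed exon length.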

Additional observations from a re-analysis of the deposited data

How the results depend on the processing

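The 6 calls for wounding in WT (5 higher, 1 lower) and the 6 in isi1-2 (5 higher, 1 lower) were made in each of the 6 fits per comparison that left out 1 sample of the groups compared. No call reversed under any alternative, but 6 of the 40 fold changes of members changed sign, 0 of them called, such as ANAC055 for genotype in wounded plants (log2 fold change -0.34 to 0.25). With a stricter filter (at least 50 counts in at least 3 samples) NAP was not tested, so 0 members were called lower for wounding in WT and 0 in isi1-2, and with the compared groups fitted alone 0 were called lower in isi1-2 for the same reason. For genotype in wounded plants the fits without 1 sample called 0 to 1 members, and 0 to 1 higher. The deviations of same-numbered samples had correlations of 0.0170 to 0.0817 between the WT groups and -0.03005 to 0.138 between the isi1-2 groups. They were 0.0290 to 0.185 between the unwounded and -0.0147 to 0.167 between the wounded groups. Differently numbered samples gave -0.0679 to 0.0176, -0.140 to 0.151, -0.119 to 0.0596 and -0.191 to 0.0782 in that order. In no comparison did every same-numbered pair exceed 0.1, so the numbers were not taken to pair samples in the main fit. Whether samples of 1 number share an effect was not tested. With a replicate block 6 members were called for wounding in WT and 7 in isi1-2, where ANAC102 was added (log2 fold change 0.28; edgeR adjusted p = 0.0455), and 0 in the other comparisons. Over all genes the block called 703 rather than 446 for genotype in wounded plants, 66 rather than 24 in unwounded plants and 75 rather than 6 for the interaction; DESeq2 called 715, 92 and 153. Leaving out 1 sample gave 104 to 940, 6 to 15 and 0 to 245, and the compared groups alone gave 142 and 81 for the genotype comparisons. The interaction count was 245 without replicate 1 of wounded WT, 19 and 12 without replicates 1 and 3 of wounded isi1-2, 4 and 1 without replicates 1 and 3 of unwounded WT, and 0 without replicate 2 of unwounded WT, replicate 3 of wounded WT, replicate 2 of wounded isi1-2 or any unwounded isi1-2 sample. Depth limited JUB1, ORE1 and wounded NAP, which lay at the floor of 3 counts. Coding length was shorter than exon length for all 10 members, so levels per kb by coding length were 1.43 to 2.27 times as high wherever a member was counted, and ANAC032 passed NAP in unwounded and ANAC102 in wounded WT. Among the values of single genes and lists, 2489 kept their call or size, 57 moved, 6 passed the threshold newly and 26 lost it.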
